A study of Rattus norvegicus with 6 samples.

Results

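A set of 10 genes around the inhibitory G protein Gαi were followed in rat liver: Rasd2, Rgs2, Rgs3, Rgs4, Rgs5, Rgs10, Rgs14, Rgs16, Gnai2 and Adra2b. They were taken by gene name from the deposited expression table, each name matched a single entry, and together they were 10 of the 30957 genes in it. The genes were selected on measured values, the log2 ratio of the counts between t-DHEA and t-PBS livers, which were known when the names were picked. The differences between the groups are therefore given as a description of these genes, with their errors and without a test. Both groups were female Sprague Dawley rats, bought shortly after weaning, that drank a cocktail of ampicillin, neomycin, metronidazole and vancomycin in 3 courses, which left them depleted of gut bacteria (pseudo germ-free). They were then gavaged every day with fresh, pooled faecal microbiota, from PBS-treated donors in the t-PBS group and in the t-DHEA group from donors treated with dehydroepiandrosterone (DHEA), an androgen precursor used to induce features of polycystic ovary syndrome. The recipients were not injected with DHEA, but the transplant can carry its sulphate from the donors. In donor faeces the study did not detect DHEA. It found the sulphate raised in DHEA-treated donors, at levels it judged too low to act. The study considered the effect of the transplant to come mainly from the microbiota. The study also reported higher serum testosterone and glucose intolerance in the t-DHEA recipients themselves, so these differed with the group as well. The liver data used here cannot themselves tell transferred bacteria from transferred androgen, or either from these changes in the recipients. RNA from the livers of 3 rats per group was sequenced, with 13031722 to 14316886 counts on genes per t-PBS liver and 12348511 to 13529414 per t-DHEA liver. The rats were housed in pairs, and whether the sequenced rats shared a cage is not given in the sources used here, so the p-values below measure only the spread between these 6 livers.

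Receptors coupled to Gαi lower cyclic AMP by inhibiting adenylyl cyclase, and so oppose hormones such as glucagon that raise it in the liver through Gαs. The signal lasts as long as Gα holds GTP, and regulators of G protein signalling (RGS proteins) end it by speeding up GTP hydrolysis. Rasd2, also called Rhes, is a small Ras-like GTPase related to Rasd1 (Dexras1), best known from the striatum of the brain, where it dampens signalling through G protein-coupled receptors. Gnai2 encodes the Gαi2 subunit, and Adra2b the α2B adrenergic receptor, which couples to Gαi.

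Expression between livers is given as CPM, counts scaled to a common library size, after TMM normalisation, and differences as the log2 ratio of t-DHEA to t-PBS with its standard error (SE) from edgeR's quasi-likelihood fit. A count of 3, the most that an observed 0 allows, was worth 0.21 to 0.243 CPM depending on the liver, which covers counting error only. Of the 10 genes, 8 passed edgeR's filter on low counts, and Rgs4 and Rgs14 did not; the 8 are therefore not the whole set. Among these 8, 1 was higher (Rasd2) and 2 were lower (Rgs10 and Adra2b) at the study's criteria, which were a fold change over 1.2 with p under 0.05 before adjustment. Of all 12210 genes tested, 4.95% met these criteria, 1.97% in the higher and 2.98% in the lower direction, and no gene had a Benjamini-Hochberg adjusted p below 0.05 in edgeR, against 5.19% at an unadjusted p below 0.05. DESeq2 gave 24 genes at an adjusted p below 0.05 and limma on FPKM gave 0. The livers of the groups did not overlap for the same 3 of the 10 genes, and for 10.1% of all genes tested. The log2 ratio was negative for 8 of the 10 and for 6 of the 8, against 49.6% of all genes tested. The median log2 ratio was -0.20 over the 10 genes and -0.14 over the 8, beside 0.0013 over all genes tested. As the choice of the genes used this comparison, nothing is read from these shares. In bulk tissue a lower value can be fewer cells of a type or less RNA per cell, which cannot be told apart here.

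**Figure D1:**
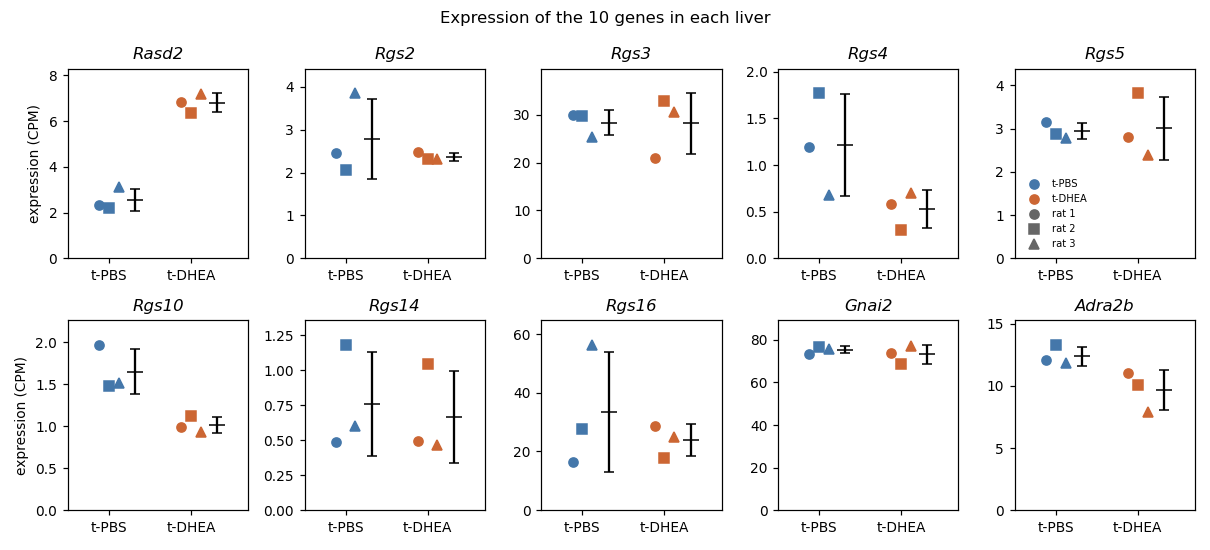
Expression of the 10 genes in CPM (normalised counts, linear axes starting at 0) in each liver of the t-PBS group (blue) and the t-DHEA group (orange), 3 rats per group, with the symbol shape giving the rat number and the bars the mean ± SD. The groups stand apart for Rasd2, Rgs10 and Adra2b and overlap for the other genes, and Rgs16 runs from 16.5 to 56.2 CPM within t-PBS.

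Among the 8 genes that passed the filter, Rasd2 alone had a positive log2 ratio larger than its SE. Its counts were 33, 30 and 41 in t-PBS against 83, 85 and 93 in t-DHEA, here and throughout listed in the order of the rat number, which gave 2.31, 2.21 and 3.09 CPM against 6.85, 6.36 and 7.18 CPM. The lowest t-DHEA liver was thus well above the highest t-PBS liver, and the livers within a group lay close together. The mean was 2.54 ± 0.483 CPM (SD, n = 3) in t-PBS and 6.80 ± 0.415 CPM (SD, n = 3) in t-DHEA, a log2 ratio of 1.42 (SE 0.19) or 2.67-fold. The coefficient of variation between rats was 19.0% in t-PBS, where counting error alone would give 17.0%, and 6.11% in t-DHEA, where it would give 10.7%. Leaving out each liver in turn kept the log2 ratio between 1.33 and 1.58. On log2(FPKM + 1) it was 0.76, a scale on which a gene near 1 FPKM is pulled towards 0. Rasd2 lies on chromosome 19 of Rnor_6.0, from 14653198 to 14663914, and no other annotated gene in the table overlaps it.

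Because Rasd2 is best known from striatal neurons, neuronal genes were examined beside it. Of 8 neuronal and striatal genes, Snap25, Syt1, Drd1 and Penk were listed at 0 in every liver, and their summed level was 0.911 to 1.74 CPM in t-PBS and 0.618 to 0.991 CPM in t-DHEA. None of the 8 passed the filter, the ranges of the groups overlapped, and the part of neuronal cells in the values of Rasd2 was not tested. A listed 0 in this table need not mean an unexpressed gene, since the ribosomal protein gene Rps6 was also listed at 0 in all 6 livers. The level of Rasd1, the nearest relative of Rasd2 and a gene induced by glucocorticoids, was 7.47 ± 1.18 FPKM (SD, n = 6) against 1.34 ± 0.664 FPKM for Rasd2. Rasd1 did not follow Rasd2: its log2 ratio was -0.15 (SE 0.16, edgeR adjusted p = 0.989), with overlapping groups.

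Genes with the profile most like that of Rasd2 over the 6 livers included Lmln, Snrpn, Tagln and Il21r, out of 10864 genes with a mean of at least 1 CPM. Likeness was the root mean square difference of centred log2 CPM, which was 0.24 for Lmln, 0.29 for Snrpn, 0.29 for Tagln and 0.30 for Il21r, beside a median of 0.73 over the genes compared. Their log2 ratios were 1.11 (SE 0.32) for Lmln, 1.06 (SE 0.37) for Snrpn, 1.06 (SE 0.13) for Tagln and 1.18 (SE 0.38) for Il21r. Lmln, Snrpn and Il21r were scarce, at means of 1.01, 1.40 and 1.16 CPM, close to the lower limit of 1 CPM used here. Lmln encodes a metallopeptidase, Snrpn a splicing protein and Il21r an interleukin receptor. Tagln, which encodes the smooth muscle protein transgelin, was the most abundant of these 4 at a mean of 16.6 CPM. It is also one of the pericyte and smooth muscle markers given below with Rgs5. Most of that list did not follow it: of 8 markers tested, 6 were lower in t-DHEA and 2, Tagln among them, were higher. This likeness includes the difference between the groups that entered the choice of Rasd2, and is a description.

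The sequence upstream of the start is shown for 3 genes: Rasd2, for which the groups stood apart, Rgs16, which varied most among t-PBS livers, and Rgs4, the scarce neighbour of Rgs5. The RefSeq table for GRCr8, a later build than that of the counts, held 9 of the 10 genes (not Gnai2). The 250 bases before the annotated start are printed 5′ to 3′ in the direction of the gene, from chr19:13599778-13600027 (plus strand) for Rasd2, chr13:68437870-68438119 (plus strand) for Rgs16 and chr13:84475885-84476134 (minus strand) for Rgs4. Capitals mark every match, on either strand, to the motifs searched.
Rasd2: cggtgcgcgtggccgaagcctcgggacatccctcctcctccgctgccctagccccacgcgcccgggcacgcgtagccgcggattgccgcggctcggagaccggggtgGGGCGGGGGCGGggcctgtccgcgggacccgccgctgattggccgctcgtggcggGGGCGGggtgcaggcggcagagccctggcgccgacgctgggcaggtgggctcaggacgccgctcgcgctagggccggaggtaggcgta
Rgs16: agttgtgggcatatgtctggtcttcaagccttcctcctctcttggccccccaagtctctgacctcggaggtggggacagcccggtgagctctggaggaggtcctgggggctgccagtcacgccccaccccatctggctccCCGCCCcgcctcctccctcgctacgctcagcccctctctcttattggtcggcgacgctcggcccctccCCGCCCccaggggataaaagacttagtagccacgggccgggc
Rgs4: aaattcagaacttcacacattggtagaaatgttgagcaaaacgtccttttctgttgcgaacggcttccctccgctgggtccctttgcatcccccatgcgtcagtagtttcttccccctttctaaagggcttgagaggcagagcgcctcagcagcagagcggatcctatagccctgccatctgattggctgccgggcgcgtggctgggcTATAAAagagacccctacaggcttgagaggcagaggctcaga
These windows differed in composition. The Rasd2 window was 78.4% G or C with 37 CpG dinucleotides, the 98.3rd percentile of all promoters, the Rgs16 window was 66.8% and the Rgs4 window 54.4%, where the median promoter was 51.2%. The capitals in Rasd2 are 3 GC boxes (GGGCGG, or CCGCCC on the other strand), whose first bases lie 143, 137 and 88 bases before the start, the first pair directly adjoining. Rgs16 held 2 GC boxes, at 110 and 42 bases before the start and on the other strand. Rgs4 held no GC box and 1 TATA box (TATAAA or TTTATA), 42 bases before the start. A GC box stood in 7 of the 9 windows and in 30.5% of 33469 promoters of the same length, and a TATA box in 2 of the 9, Rgs3 and Rgs4, and in 12.9% of promoters. The E-box CACGTG, found in 5.59% of promoters, and the cyclic AMP response element TGACGTCA, found in 1.59%, were in 0 of the 9 windows. The steroid receptor half-site TGTTCT or AGAACA, found in 17.5%, was in the Rgs3 window only. These are matches of letters and not sites of binding.

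Adra2b, the receptor, was lower in t-DHEA. It had 172, 180 and 157 counts in t-PBS and 134, 135 and 102 counts in t-DHEA, or 12.1, 13.3 and 11.9 CPM against 11.1, 10.1 and 7.88 CPM. Every t-DHEA liver was below every t-PBS liver, but the nearest livers of the groups, t-DHEA rat 1 and t-PBS rat 3, lay close together. The mean was 12.4 ± 0.769 CPM in t-PBS and 9.68 ± 1.63 CPM in t-DHEA (SD, n = 3 each), a log2 ratio of -0.36 (SE 0.15). With each liver left out in turn the ratio ran from -0.46 to -0.22, and the study's criteria were then met in 1 of 6 fits, that leaving out t-DHEA rat 1, and DESeq2 on all livers did not meet them. Its size was most reduced, to -0.22, when t-DHEA rat 3 was left out. Adra2b lies on chromosome 3 from 119805941 to 119809987. 

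Gnai2 was the most abundant and the steadiest of the 10 genes. It had 73.6, 76.7 and 75.9 CPM in t-PBS and 73.7, 68.7 and 77.3 CPM in t-DHEA, from at least 892 counts per liver. The groups overlapped, and the means were 75.4 ± 1.61 and 73.2 ± 4.31 CPM, a log2 ratio of -0.043 (SE 0.087). Its standard deviation of log2 CPM within groups, 0.064, was at the 4.29th percentile of all genes tested, whose median was 0.188. Among the 3 Gαi genes, Gnai2 took 37.9% to 40.3% of the summed FPKM in the 6 livers, Gnai3 57.7% to 60.4% and Gnai1 1.19% to 2.37%. Gnai2 lies on chromosome 8 from 116370744 to 116391307.

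Rgs16 belongs to the small R4 RGS proteins, which act on Gαi and Gαq, and is known as a carbohydrate-responsive gene in liver. It had 235, 376 and 745 counts in t-PBS and 347, 239 and 324 counts in t-DHEA, or 16.5, 27.7 and 56.2 CPM against 28.7, 17.9 and 25.0 CPM. The highest t-PBS liver was 3.41 times the lowest, and all 3 t-DHEA livers lay within the t-PBS range. The means were 33.5 ± 20.5 CPM and 23.9 ± 5.48 CPM, a log2 ratio of -0.49 (SE 0.38). The spread was not one of counting: the coefficient of variation in t-PBS was 61.2%, where counting error alone would give 4.70%, and the within-group SD of log2 CPM was at the 96.4th percentile of genes tested. A single liver set the sign of the difference, which was 0.11 when t-PBS rat 3 was left out. It was -0.82 with t-PBS rat 1 out of the fit, the single such fit of 6 in which Rgs16 met the criteria.

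Known targets of ChREBP, the carbohydrate-sensing transcription factor of liver, are set beside Rgs16, since that factor is known to act on it. Thrsp, a lipogenic protein, had 673, 1108 and 1353 CPM in t-PBS, in the same order as Rgs16, and 1683, 1202 and 1348 CPM in t-DHEA, there too in the order of Rgs16 but at a level not below that of t-PBS. Txnip, which restrains glucose uptake, was highest in t-PBS rat 3 at 188 CPM, the liver with the most Rgs16, and stood at 142 and 136 CPM in t-PBS rats 1 and 2. In t-DHEA, Txnip was 129, 120 and 104 CPM, below every t-PBS liver (log2 ratio -0.40, SE 0.14, edgeR adjusted p = 0.93). With t-PBS rat 3 or t-DHEA rat 3 out of the fit the log2 ratio of Txnip was -0.24 or -0.31 and missed the criteria. With all 6 livers Txnip was the 1 gene of the 19 ChREBP targets tested to meet the criteria, and 16 of the 19 had a negative log2 ratio, with a median of -0.17. Of the most abundant targets, the desaturase Scd had a log2 ratio of -0.48 (SE 0.41), Thrsp of 0.43 (SE 0.24) and the fructose kinase Khk of -0.11 (SE 0.12), and none of these met the criteria. Scd had 5050, 12086 and 8098 CPM in t-PBS, not in the order of Rgs16. In t-DHEA it had 8586, 2883 and 6565 CPM, in that order. Khk had 234, 270 and 292 CPM in t-PBS, in the order of Rgs16. In t-DHEA it had 242, 220 and 279 CPM, not in that order. The count of targets lower at the criteria was set by single livers: leaving out t-PBS rat 1 made it 5, leaving out t-DHEA rat 1 made it 4, leaving out t-DHEA rat 2 made it 2, and leaving out rat 3 of either group made it 0. In the higher direction DESeq2 called 1 target, as did edgeR with t-PBS rat 3 or t-DHEA rat 1 left out. What the targets and Rgs16 share was not tested.

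Rgs2 and Rgs3 differed little between the groups. Rgs2, which prefers Gαq, had 2.45, 2.06 and 3.85 CPM in t-PBS and 2.48, 2.32 and 2.32 CPM in t-DHEA, with t-PBS rat 3 alone above the rest. The log2 ratio of Rgs2 was -0.23 (SE 0.28) and turned to 0.07 without that liver. Rgs3, which acts on Gαi and Gαq and has long isoforms, had 30.1, 29.9 and 25.3 CPM in t-PBS and 21.1, 33.0 and 30.6 CPM in t-DHEA. Its lowest and highest livers were both in t-DHEA, and the means were 28.4 ± 2.71 and 28.2 ± 6.31 CPM, a log2 ratio of -0.0089 (SE 0.17). Without t-DHEA rat 1 the log2 ratio of Rgs3 was 0.16. Rgs2 lies on chromosome 13 from 60846308 to 60849094 and Rgs3 on chromosome 5 from 78428669 to 78567288, where a U4 RNA gene without counts overlaps it.

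Rgs4 and Rgs5 are neighbours on chromosome 13, Rgs5 from 87966758 to 88003035 and Rgs4 from 88054817 to 88061108, with 51781 bases between them. Both encode small R4 proteins. Rgs5 is best known as a marker of pericytes, the contractile cells around small vessels. It had 3.15, 2.88 and 2.79 CPM in t-PBS and 2.81, 3.82 and 2.39 CPM in t-DHEA, with the lowest and the highest liver both in t-DHEA. The log2 ratio of Rgs5 was 0.033 (SE 0.24), and leaving out t-DHEA rat 2 turned it to -0.18 where leaving out t-DHEA rat 3 made it 0.18. Rgs4 had few counts, 17, 24 and 9 in t-PBS and 7, 4 and 9 in t-DHEA, or 1.19, 1.77 and 0.679 CPM against 0.578, 0.299 and 0.695 CPM. The groups overlapped, as t-PBS rat 3 was level with t-DHEA rat 3. In the fit without a filter, where 2.63% of 17187 genes met the criteria in the lower direction, the log2 ratio of Rgs4 was -1.20 (SE 0.50). Rgs4 met the criteria in that fit. With each liver also left out, an alternative added after the data were seen, its log2 ratio lay between -1.48 (t-PBS rat 3 left out) and -0.83 (t-PBS rat 2 left out), and the criteria were met in 2 of 6 fits, those leaving out rat 3 of either group. The coefficient of variation of Rgs4 was 45.0% in t-PBS, where counting error alone would give 24.5%, and 38.8% in t-DHEA, where it would give 38.7%.

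Pericyte and smooth muscle markers gave a background for Rgs4 and Rgs5. The summed level of 10 such genes, led by Pdgfrb, Tagln and Kcnj8, was 75.8 to 91.0 CPM in t-PBS and 76.5 to 99.0 CPM in t-DHEA, so the groups overlapped (exact permutation test, two-sided, p = 0.5). Of the 8 that were tested, 2 were higher and 6 lower in t-DHEA, with 1 meeting the criteria in each direction. The stellate cell and fibroblast list was lower in t-DHEA, with 477 to 571 CPM against 586 to 761 CPM. Col3a1 led this sum, with 379, 499 and 430 CPM in t-PBS and 329, 286 and 376 CPM in t-DHEA. The next most abundant, Reln and Lrat, overlapped between the groups. Of the 10 genes of the list, 9 had a negative ratio, beside 49.6% of all genes tested. The criteria were met by 4 of them, beside 2.98% of all genes in the lower direction. For 3 against 3 livers the smallest p an exact permutation test can give is 0.1, which this list reached. The part of these cells in the values of Rgs4 was not tested.

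Rgs10 and Rgs14 are the R12 members, selective for Gαi. Rgs14 also carries a GoLoco motif that binds Gαi in its inactive form, and Rgs10 is abundant in immune cells and platelets. Rgs10 had 28, 20 and 20 counts in t-PBS and 12, 15 and 12 counts in t-DHEA, or 1.96, 1.47 and 1.51 CPM against 0.991, 1.12 and 0.927 CPM. No liver of one group overlapped the other, and t-PBS rat 1 stood above its group. The means were 1.65 ± 0.272 and 1.01 ± 0.0995 CPM, a log2 ratio of -0.70 (SE 0.29). With each liver left out in turn the ratio of Rgs10 stayed between -0.78 and -0.55, and the criteria were met in 0 of 6 such fits. They were not met either in DESeq2, without a filter, or with the rat number as a block. Rgs14 had 7, 16 and 8 counts in t-PBS and 6, 14 and 6 in t-DHEA, and its log2 ratio was -0.16 (SE 0.53) in the fit without a filter. Without t-DHEA rat 2 that ratio was -0.64 and without t-PBS rat 2 it was 0.30. For Rgs14 a single liver in each group, rat 2, held more counts than the other 2 livers of its group together. Rgs10 lies on chromosome 1 from 199782078 to 199823386 and Rgs14 on chromosome 17 from 9777842 to 9792007.

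Markers of blood cells were read beside Rgs10. The neutrophil and monocyte list was led by Lyz2, Ly86 and Itgam. It summed to 54.3 to 56.0 CPM in t-PBS and 35.9 to 49.7 CPM in t-DHEA, lower in every t-DHEA liver as Rgs10 was. The mean of log2 CPM of the same list, in which scarce genes weigh as much as Lyz2, was instead 0.27 higher in t-DHEA. Of its 9 genes 5 were tested, 2 higher and 3 lower, of which 1 and 2 met the criteria, and Mpo was listed at 0 in every liver. The lymphocyte list summed to 31.6 to 32.5 CPM and 29.1 to 32.8 CPM, with Klrb1 at 0, and the platelet list, of which only Itga2b was tested, to 14.3 to 19.9 CPM and 15.0 to 16.5 CPM. The Kupffer cell and macrophage list summed to 674 to 842 CPM in t-PBS and 731 to 1006 CPM in t-DHEA, with 9 of 11 tested genes positive and 0 meeting the criteria. The groups overlapped for these 3 lists. The part of blood cells in the value of Rgs10 was not tested.

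**Figure D2:**
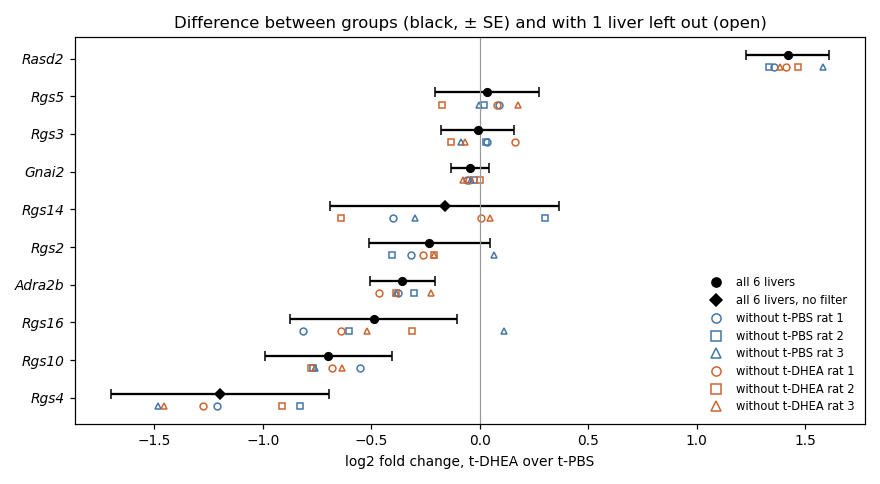
Log2 ratio of t-DHEA to t-PBS for each of the 10 genes: black symbols with bars are the value ± SE from all 6 livers, open symbols are the values with a single liver left out (its group by colour, its rat by shape), and diamonds mark Rgs4 and Rgs14, whose values, open symbols too, come from fits without a filter. Rasd2 stays between 1.33 and 1.58, Rgs10 between -0.78 and -0.55 and Adra2b between -0.46 and -0.22, while Rgs16 runs from -0.82 to 0.11 and crosses 0.

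Levels were compared between genes on FPKM, which is per length. This order was not used in choosing the genes. Over the 6 livers (mean ± SD) it ran from Gnai2 at 27.7 ± 1.54 FPKM through Rgs16 at 11.6 ± 5.88, Rgs3 at 4.27 ± 0.676, Rgs2 at 2.97 ± 0.731, Adra2b at 2.73 ± 0.506, Rgs5 at 2.37 ± 0.376, Rgs10 at 1.59 ± 0.480 and Rasd2 at 1.34 ± 0.664 to Rgs4 at 0.301 ± 0.190 and Rgs14 at 0.166 ± 0.0767 FPKM. Gnai2 was on average 181-fold above Rgs14. The ranges of neighbours did not overlap for 3 of the 9 neighbouring pairs, Gnai2 over Rgs16, Rgs16 over Rgs3 and Rasd2 over Rgs4. In an exact paired permutation test over the 6 livers (two-sided), these 3 pairs and Rgs5 over Rgs10 had p = 0.03125, the smallest possible, and an adjusted p of 0.0703 over the 9 pairs. No pair passed an adjusted p of 0.05. With 6 livers, a pair at the smallest p could pass only if most of the 9 pairs reached it together. This outcome alone therefore does not count against the order. For the other 5 pairs the exact p ran from 0.0938 to 0.469, so a difference beyond the spread was not shown for Rgs3 over Rgs2, Rgs2 over Adra2b, Adra2b over Rgs5, Rgs10 over Rasd2 or Rgs4 over Rgs14. Genes that were not neighbours were not tested against each other, and the ranges of Rgs3 (3.12 to 4.92 FPKM) and Rgs5 (1.89 to 3.01 FPKM), for example, did not overlap.

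The pair of Rgs10 and Rasd2 changed order between the groups. Rgs10 had 2.33, 1.82 and 1.80 FPKM in t-PBS, above Rasd2 at 0.666, 0.665 and 0.895 FPKM in 3 of 3 livers. In t-DHEA Rgs10 had 1.16, 1.32 and 1.09 FPKM, below Rasd2 at 1.94, 1.82 and 2.05 FPKM in 3 of 3 livers. The switch follows from the differences of both genes that entered their choice and is a description.

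**Figure D3:**
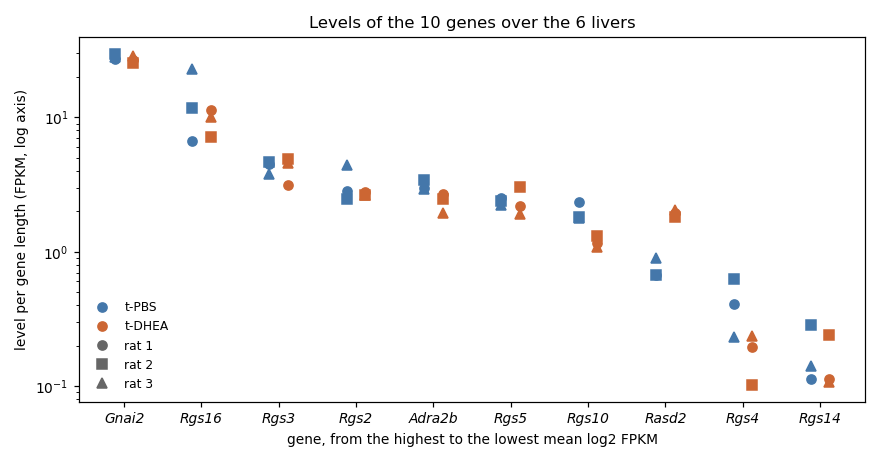
Level of each of the 10 genes in FPKM (log axis) in the 6 livers, ordered by mean log2 FPKM, with t-PBS livers in blue, t-DHEA livers in orange and the symbol shape giving the rat number. Gnai2 lies at 25.3 to 29.8 FPKM in all livers, Rgs16 at 6.67 to 22.9 FPKM, and Rgs4 and Rgs14 below 0.7 FPKM.

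Within the RGS family the 7 genes followed here carried most of the signal. The table held 20 genes named Rgs, of which 9 passed the filter and 5 had no count in any liver. Together the 7 took 73.7% to 84.8% of the summed RGS FPKM in the 6 livers, and Rgs16 and Rgs3 alone took 42.6% to 63.7%. Rgs16 took 25.4%, 37.0% and 54.6% in the t-PBS livers against 40.7%, 30.8% and 38.9% in the t-DHEA livers. The summed RGS level itself was 26.3, 31.6 and 41.9 FPKM in t-PBS and 28.0, 23.3 and 25.9 FPKM in t-DHEA, highest in the liver with the most Rgs16. The most abundant other genes were Rgs18 at 3.10 FPKM, known from platelets and leukocytes, Rgs19 at 1.52 FPKM and Rgs12 at 0.76 FPKM. Of the 20 genes, 10, with Rgs2, Rgs4, Rgs5 and Rgs16 among them, lie on chromosome 13, within 32.5 Mb between 60846308 and 93307199.

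**Figure D4:**
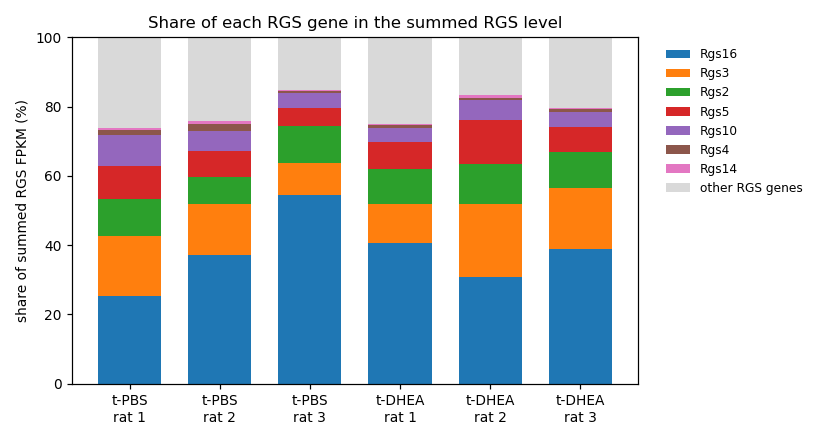
Share of the summed FPKM of all RGS genes (percent, vertical axis from 0) taken by each RGS gene of the set and by the remaining RGS genes together, as stacked bars for each of the 6 livers. Rgs16 takes 25.4% in t-PBS rat 1 and 54.6% in t-PBS rat 3, and 30.8% to 40.7% in the t-DHEA livers.

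The remaining genes of the pathway were taken as 10 lists. Of 215 genes measured, 130 were tested in edgeR, and 5 were higher and 5 lower in t-DHEA at the criteria, 7.69% of those tested beside 4.95% of all genes. Each of these 10 had an adjusted p of at least 0.805, so none passed the correction. With each liver left out in turn, Cav1 and Tat met the criteria in 6 of 6 fits, Gna14, Pde3b and Txnip in 4, Sstr3 in 3, Sds in 2, and Gpsm1, Hcar1 and Prkar2b in 1. The median log2 ratio of the 130 was -0.05, beside 0.0013 over all genes. As the lists were chosen with earlier results of these data known, nothing is read from this share or median.

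Among other genes with an RGS domain, whether or not they act on Gα, 9 were tested and 0 met the criteria, with a median of -0.13. The most abundant were Grk2, a receptor kinase, at 11.1 ± 0.843 FPKM, Snx13 at 8.05 ± 0.885 FPKM and Axin2, a Wnt regulator, at 3.22 ± 0.487 FPKM (SD, n = 6). Of 11 other modulators of Gα, 0 were higher and 2 lower. Cav1, the caveolar coat protein that can bind Gα, had 5.47, 9.51 and 5.28 CPM in t-PBS and 3.96, 2.54 and 3.48 CPM in t-DHEA, all t-DHEA livers below all t-PBS livers. The log2 ratio of Cav1 was -1.02 (SE 0.28, edgeR adjusted p = 0.805), and it was -0.69 without t-PBS rat 2. Gpsm1, which holds Gαi in its inactive form, had a log2 ratio of -0.50 (SE 0.22, edgeR adjusted p = 0.957). The most abundant of that list were Nucb1 at 104 ± 6.98 FPKM, the exchange factor Ric8a at 15.4 ± 1.46 FPKM, and Rasd1.

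Of 10 Gα genes tested, 1 was higher and 0 lower. Gna14, a Gαq-type subunit, had 1.26, 1.62 and 1.66 CPM in t-PBS and 3.06, 2.32 and 2.47 CPM in t-DHEA, with the groups apart (log2 ratio 0.78, SE 0.26, edgeR adjusted p = 0.888). Its log2 ratio was 0.67 with t-PBS rat 1 and 0.66 with t-DHEA rat 1 out of the fit, which then missed the criteria. The most abundant of the Gα genes used, which leave out Gnas (Gαs) because it had several entries, were Gna12 at 59.9 ± 6.93, Gnai3 at 41.7 ± 3.19 and Gna11 at 12.7 ± 1.07 FPKM, so Gnai2 at 27.7 FPKM lay between the second and the third of these. Of 8 Gβ and Gγ genes, led by Gnb2 at 46.1 ± 4.06, Gng10 at 32.2 ± 3.02 and Gnb1 at 23.8 ± 1.86 FPKM, 0 met the criteria.

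Of 63 Gi-coupled receptors measured, 19 were tested, 1 was higher and 1 lower. The somatostatin receptor Sstr3 was higher (1.07, 1.05 and 1.47 CPM in t-DHEA against 0.561, 0.590 and 0.679 CPM in t-PBS, log2 ratio 0.96, SE 0.34, edgeR adjusted p = 0.92). The lactate receptor Hcar1 was lower (0.731 ± 0.105 against 1.27 ± 0.0692 CPM, log2 ratio -0.79, SE 0.31, edgeR adjusted p = 0.957). The most abundant were S1pr1, a sphingosine-1-phosphate receptor typical of endothelium, at 51.2 ± 5.77 FPKM, the prostaglandin receptor Ptger3 at 4.89 FPKM and S1pr2 at 2.26 ± 0.388 FPKM, so Adra2b at 2.73 FPKM stood between the second and the third. Of 6 Gs-coupled and other adrenergic receptors 0 met the criteria. They were led by the glucagon receptor Gcgr at 76.7 ± 3.81 FPKM, the α1B adrenergic receptor Adra1b at 21.7 ± 3.93 FPKM and Vipr1 at 6.28 ± 1.13 FPKM.

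Downstream of the receptors, 8 adenylyl cyclases were tested and 0 met the criteria, led by Adcy6 at 13.8 ± 0.982, Adcy5 at 2.33 ± 0.335 and Adcy9 at 1.88 ± 0.265 FPKM. Of 24 genes of protein kinase A, Epac and cyclic AMP phosphodiesterases, 1 was higher and 1 lower. Pde3b, the phosphodiesterase through which insulin lowers cyclic AMP, had 54.4, 44.6 and 52.2 CPM in t-PBS and 66.4, 60.1 and 59.6 CPM in t-DHEA, with the groups apart (log2 ratio 0.30, SE 0.11, edgeR adjusted p = 0.92). Its log2 ratio was 0.22 with t-PBS rat 2 and 0.25 with t-DHEA rat 1 out of the fit, both short of the criteria. Prkar2b, a regulatory subunit of protein kinase A, was lower at 0.885 ± 0.378 against 1.63 ± 0.0718 CPM (log2 ratio -0.87, SE 0.35, edgeR adjusted p = 0.957). The most abundant were Prkar1a at 56.3 ± 2.58, Prkaca at 24.4 ± 3.49 and Pde8a at 15.8 ± 1.04 FPKM.

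Of 16 tested genes on a list for cyclic AMP signalling through CREB, 2 were higher and 0 lower, with a median of -0.11. The list holds Creb1 and Crtc2 beside genes induced through CREB. Tat, tyrosine aminotransferase, was higher (889 ± 225 against 554 ± 70.4 CPM, log2 ratio 0.68, SE 0.19, edgeR adjusted p = 0.805). Sds, serine dehydratase, had 17.9, 15.6 and 17.1 CPM in t-PBS and 40.2, 10.5 and 110 CPM in t-DHEA, so that the lowest and the highest livers were both in t-DHEA. The log2 ratio of Sds was 1.67 (SE 0.64, edgeR adjusted p = 0.957) and 0.59 without t-DHEA rat 3. Pck1, the gluconeogenic enzyme at 516 ± 211 FPKM, and Dusp1 at 97.2 ± 33.7 FPKM had log2 ratios of 0.27 (SE 0.37) and 0.02 (SE 0.33) and did not meet the criteria.

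**Figure D5:**
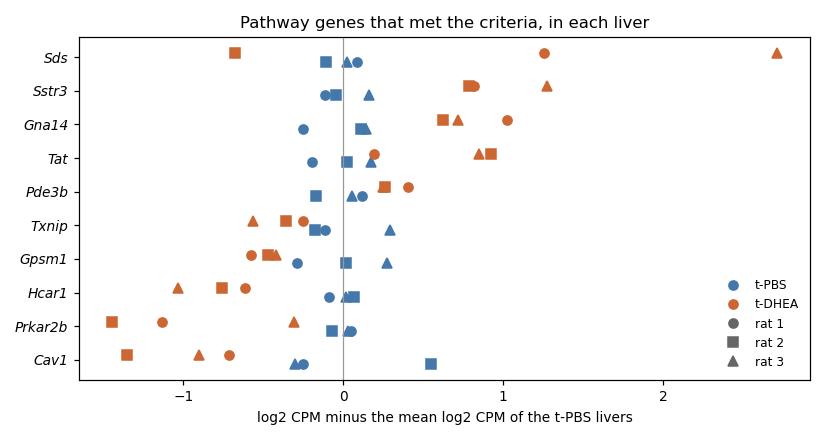
Expression of the 10 pathway genes meeting the criteria in each liver, as log2 CPM minus the mean log2 CPM of the t-PBS livers (horizontal axis), with t-PBS in blue, t-DHEA in orange and the symbol shape giving the rat number. All t-DHEA livers lie to 1 side of the t-PBS livers for 9 of the genes, while for Sds, at 40.2, 10.5 and 110 CPM in t-DHEA, they lie on both sides.

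The tissue matched its label. The 8 hepatocyte genes, led by Alb, Tf and Serpina1, summed to 168448 to 183839 CPM in t-PBS and 177337 to 196232 CPM in t-DHEA (exact permutation test, two-sided, p = 0.4). Besides the lists above, the groups stood apart for bile duct genes (42.1 to 46.7 against 31.0 to 40.5 CPM, 5 of 5 tested lower, 2 of them at the criteria) and mesothelial genes (35.0 to 37.4 against 1.87 to 28.4 CPM, 6 of 6 lower, 4 of them at the criteria). They also stood apart for red cell genes, with 185 to 284 against 304 to 590 CPM and 4 of 5 higher, 3 of them at the criteria. Endothelial genes overlapped (322 to 459 and 424 to 447 CPM). These lists moved with the group, as Rasd2, Rgs10 and Adra2b did, and their part in the values of the 10 genes was not tested.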

How the data were processed

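Sequence reads of liver RNA (TruSeq, paired-end) from 3 t-PBS and 3 t-DHEA rats were filtered, mapped to Rnor_6.0 with HISAT2 2.0.4 and counted per gene with StringTie 1.3.0, per the study's methods and the submitters' processing notes. The authors deposited raw fragment counts, which carry no normalisation, and FPKM values made from them per gene length and library total. Strandedness and the annotation release are not given in the sources used here, so reads of overlapping or antisense genes cannot be told apart. Group and rat number of the 6 livers came from the titles, and 0 value columns were left unmapped. The counts of no pair of livers agreed within sampling noise (chi-square at least 16.2 per degree of freedom).

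From the counts, edgeR 4.0.16 (R 4.3.3) gave TMM factors, CPM, and a quasi-likelihood fit comparing t-DHEA and t-PBS over the 12210 genes passing its filter. Genes were called at the study's criteria, a fold change over 1.2 with p under 0.05 before adjustment, and Benjamini-Hochberg adjusted p-values are over all genes tested. The study names FPKM as the input of edgeR; counts were used here because the model needs them. Levels between genes were compared on FPKM. Promoters came from RefSeq (GRCr8) by symbol, and no genome was used, so GC content of transcripts was not checked.

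The members and the gene lists were chosen with earlier results of these data known. Of 224 pathway names, 215 matched (4 through RefSeq synonyms), as did 103 of 105 marker names; 5 pathway names with several entries (Gnas, Gng5, Adora3, G6pc, Elovl6) were not used. Named genes were the 10 members, up to 3 genes per list with the lowest p among those meeting the criteria, the 3 with the highest mean FPKM, the 5 genes most like Rasd2 (1 of them is not reported here), and up to 3 markers per cell type; Rgs18, Rgs19, Rgs12, Gnai1 and Rps6 were named after their values were seen. Alternatives were DESeq2 1.42.0, RLE size factors, other filters, limma 3.58.1 on log2(FPKM + 0.1) and log2(FPKM + 1), the rat number as a block, and each liver left out; leaving out livers without a filter, for Rgs4 and Rgs14, was added after the data were seen. The fits were tested on simulated data.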

Additional observations from a re-analysis of the deposited data

How the results depend on the processing

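Rasd2 met the criteria in each of 7 other settings and 6 fits with a liver left out. Rgs10 did in 4 of 7 and 0 of 6, and Adra2b in 6 of 7 and 1 of 6. These fits reuse the livers on which the genes were chosen. They describe the processing and lend the differences no support. With each liver left out, genes higher in t-DHEA numbered 219 to 313 and lower 295 to 434, the members' median log2 ratio ran from -0.19 to -0.020, and pathway genes meeting the criteria numbered 3 to 8 higher and 3 to 9 lower. All lower genes numbered 240 with DESeq2 and all higher genes 147 with limma on log2(FPKM + 1). Pathway genes higher in t-DHEA numbered 8 with no filter, 3 with limma on log2(FPKM + 0.1) and 2 on log2(FPKM + 1), and lower ones 2 with DESeq2 and 3 with at least 10 counts in every liver. As the mean of log2 CPM, which weighs scarce genes like abundant ones, the lymphocyte, neutrophil and monocyte, and platelet lists turned to 0.027, 0.27 and 0.37. Only 5 of 12, 5 of 9 and 1 of 6 genes of these lists passed the filter, so this measure leans on genes with few counts. Itga2b, the platelet gene tested, had a log2 ratio of -0.23. With a liver left out, the log2 ratio of the Kupffer cell list ran from -0.022 to 0.22 (negative without t-DHEA rat 3) and that of the endothelial list from -0.067 to 0.17 (negative without t-PBS rat 1). The order of mean levels over both groups was kept in all 7 alternatives, but within the t-DHEA livers Rasd2 lay above Rgs10, as given above. The causes were not tested.

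Rat numbers gave no sign of pairing the livers: deviations of same-numbered livers correlated at -0.057, -0.059 and -0.055, against -0.068 to 0.116 for other pairs. The highest were 0.116 (t-PBS rat 2 with t-DHEA rat 3), 0.114 (t-PBS rat 1 with t-DHEA rat 2) and 0.106 (t-PBS rat 3 with t-DHEA rat 1). With only 3 livers per group, this check cannot exclude a pairing. With the replicate block, genes numbered 212 higher and 327 lower, pathway genes 4 higher and 2 lower, and the log2 ratio was 1.43 for Rasd2, -0.69 for Rgs10 and -0.37 for Adra2b. Depth limits Rgs4, Rgs10 and Rgs14, each with at most 28 counts per liver. It also limits the pathway genes Sstr3 (8 to 19 counts per liver), Hcar1 (8 to 18) and Prkar2b (8 to 24). DESeq2 did not call these pathway genes at the criteria. Nor did it call Gpsm1 (32 to 63 counts per liver) or Sds (141 to 1428), which had more counts.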
